A study of Mus musculus with 13 samples.

Results

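The immediate early and heat shock genes are a fixed list of 34 genes out of 55353 genes listed in the files, with 24 immediate early genes and 10 heat shock genes. They were read as unique molecular identifiers (UMIs, each standing for 1 captured transcript) in single liver cells, and the list names genes without a threshold on a measured value, although it was drawn up with earlier results of these data known. UMIs of cells with at least 1500 UMIs were summed per library and cell type, and levels are given as CPM, the UMIs of a gene scaled to a total of 1000000 UMIs of that cell type in that library. The comparisons ask how these genes differ with the isolation of the cells, with the diet and with recovery from it.

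Immediate early genes are transcribed within minutes of a stimulus without new protein synthesis, and many encode transcription factors (Fos, Jun, Egr1, Nr4a1) or proteins that switch signalling off again (Dusp1, Zfp36). Heat shock genes encode chaperones that bind unfolded proteins, and heat shock factor 1 induces many of them when proteins are damaged. Enzymatic digestion of a tissue at warm temperature is known to induce genes of both kinds, and living tissue induces them too during injury and inflammation.

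The atlas holds 12 libraries of male C57BL/6J mice of 6 to 12 weeks, from livers at D0 (steady state, no diet) and after 3, 5, 9, 19 and 25 days of chow holding DDC (3,5-diethoxycarbonyl-1,4-dihydrocollidine) at 0.1%, which causes bile duct injury. Each time point has 1 library of isolation protocol A and 1 of protocol B, written D0 A or D0 B, and the library titled D19 B carries day 18 in another label. Protocol A sorted retinoid-autofluorescent, Epcam+, Pdpn+, Lyve-1+, Cd45+ and Cd31+ Lyve-1- cells and used a single index kit. Protocol B sorted cells of a stellate cell preparation, Cd45+ Itgax+ Cd64-, Epcam+ and Cd3e+ Lyve-1- cells and used a dual index kit, so that protocol, sort and kit cannot be told apart. The 13th library, STOP, was made with protocol B after 18 days of DDC and 7 days of recovery. All libraries share gradient centrifugation and sorting. Primary liver cells were released with collagenase D, while the digestion behind the stellate cell preparation of protocol B is not given in the sources used here. D3 and D5 are called onset and D9, D19 and D25 progression. The labels do not name the mouse behind a library, so p-values measure the spread between libraries, which may be technical, and the D0 libraries carry dates of different years while no other library carries one.

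Total depth was between 29307190 and 108602421 UMIs per library, with 1541 to 14764 cells and a median of 3350 to 12013 UMIs per cell. Of 95563 cells, 80808 fell into 17 cell types that carried their own defining markers, and 14755 stayed unnamed. The name is less certain for 1184 of the 3136 pDC-like cells. Their cluster had 7 of 12 pDC markers, 0 of them among its leading genes, and 5 of 16 cDC2 markers. No pair of libraries shared more than 49 barcodes. D0 A stands apart: 2760 of its 6525 cells stayed unnamed, many in a cluster led by hepatocyte genes, and it gave 64 T-like, 23 cDC1-like and 24 cDC2-like cells, while D0 B gave 25 Kupffer-like cells. D0 B stands apart in another way, as its cells made up most of 1 cluster each of T-like (96.4% of the cluster), NK/ILC-like (97.6%), cDC2-like (92.7%), pDC-like (88.9%) and cDC1-like cells (86.2%), although members were left out of the clustering. Of 1 cluster of 197 monocyte/macrophage-like cells, 62.9% came from D0 B as well. In these types D0 and DDC are thus compared partly across different clusters. Other libraries also made up most of single clusters. Among these, D19 A gave 82.1% of a cluster of 1796 LSEC-like cells. D9 A gave 93.4% of 1 BEC-like cluster and D0 A 65.0% of another. Comparisons of LSEC-like and BEC-like cells between libraries carry the same limit. A library entered a comparison of a cell type with at least 20 cells of it. Genes of hepatocytes, as a measure of free RNA, took a median of 0.034% to 0.116% of UMIs per library over the 5 cell types present in all libraries. In sums over cells, fewer cells with a transcript and less RNA per cell cannot be told apart.

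The promoters show what the heat shock members share in sequence. RefSeq gave a promoter (250 bases before and 50 after a start, GRCm38.p6) for 28 of the 34 members, 8 heat shock and 20 immediate early. Egr1, Egr3, Ier2, Rgs1, Hspa8 and Hsp90aa1 had no such promoter and were not searched. Paired units of the heat shock element, GAANNTTC or TTCNNGAA on either strand, stood in at least 1 promoter of 7 of the 8 heat shock and 2 of the 20 immediate early members, and in 15.1% of 32851 promoters. The heat shock member without a match was Dnajb1, which passed the test of the diet in 7 cell types. At least 2 matches stood in 4 heat shock members, in no immediate early member and in 1.96% of all promoters. A window of Hspd1 (chr1:55087883-55088182) overlaps that of Hspe1 on the other strand, so that the same 3 matches count for both members. Members are counted over all their promoters, 13 for the heat shock and 24 for the immediate early members, while the percentages are of single promoters. The cyclic AMP response element TGACGTCA stood in 3 immediate early members (Btg2, Dusp1 and Ppp1r15a) and in 1.79% of all promoters, and the CArG box, bound by serum response factor, in 2 (Egr2 and Zfp36) and in 1.63%. TATAAA stood in 5 immediate early members and in 13.6% of all promoters, and TGANTCA, the AP-1 site, in no member and in 7.81%. A match is a description of letters and not a site in use, and bases outside the windows were not searched.

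The 250 bases before the start of 5 members, shown as examples with a match among members described below (the inducible Hsp70 pair, Hspb1, Hspe1 and Dusp1), are given 5′ to 3′ on the coding strand, with the heat shock element letters, or TGACGTCA in Dusp1, in capitals. They lie at chr17:34972157-34972406 (Hspa1a, minus strand), chr17:34959239-34959488 (Hspa1b, minus), chr5:135887669-135887918 (Hspb1, plus), chr1:55087898-55088147 (Hspe1, plus) and chr17:26508473-26508722 (Dusp1, minus).
Hspa1a: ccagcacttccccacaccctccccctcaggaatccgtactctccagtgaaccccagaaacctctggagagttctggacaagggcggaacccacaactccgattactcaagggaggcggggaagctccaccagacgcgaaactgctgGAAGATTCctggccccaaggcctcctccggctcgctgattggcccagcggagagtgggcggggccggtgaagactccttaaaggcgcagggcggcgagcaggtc
Hspa1b: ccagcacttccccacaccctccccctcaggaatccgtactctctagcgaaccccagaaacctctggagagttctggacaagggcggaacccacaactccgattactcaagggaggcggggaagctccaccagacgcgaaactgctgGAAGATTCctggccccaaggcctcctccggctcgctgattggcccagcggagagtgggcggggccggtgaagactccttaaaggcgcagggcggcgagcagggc
Hspb1: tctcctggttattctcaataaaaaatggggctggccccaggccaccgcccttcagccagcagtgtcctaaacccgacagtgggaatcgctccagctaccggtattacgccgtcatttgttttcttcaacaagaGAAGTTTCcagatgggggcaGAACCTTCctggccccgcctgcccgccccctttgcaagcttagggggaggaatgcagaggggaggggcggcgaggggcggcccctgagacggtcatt
Hspe1: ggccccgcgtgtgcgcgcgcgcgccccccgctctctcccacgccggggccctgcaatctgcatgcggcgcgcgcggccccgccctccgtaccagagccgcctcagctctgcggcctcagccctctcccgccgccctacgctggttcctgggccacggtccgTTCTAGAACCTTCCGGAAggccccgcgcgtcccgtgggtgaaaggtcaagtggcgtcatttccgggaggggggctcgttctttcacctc
Dusp1: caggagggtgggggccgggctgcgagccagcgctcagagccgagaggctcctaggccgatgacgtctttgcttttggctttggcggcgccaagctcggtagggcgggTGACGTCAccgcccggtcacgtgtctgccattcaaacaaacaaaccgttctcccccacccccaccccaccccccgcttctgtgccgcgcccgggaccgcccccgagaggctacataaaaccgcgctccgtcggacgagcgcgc
The windows of Hspa1a and Hspa1b were identical at 247 of 250 bases and differed as C44T, T47C and T249G, with the base of Hspa1a first and positions counted from 1 at the 5′ end. Their transcripts are near copies as well: 63.8% of the 31-base words of Hspa1a also occur in Hspa1b, and 67.6% the other way. UMIs of the pair may thus be lost or misplaced between both genes, and their sum is given beside them. Of the words of Hspb1, Hsp90aa1, Hspd1, Hspa8, Hspe1 and Dnaja1, 52.3%, 51.4%, 50.1%, 43.5%, 24.8% and 13.4% occur in other genes or pseudogenes, so their levels are uncertain in the same way.

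The inducible Hsp70 chaperones Hspa1a and Hspa1b followed the library more than the cell type. In monocyte/macrophage-like cells Hspa1a stood at 1973 CPM in D0 A, 457.0 in D0 B, 285.0 in D3 A, 278.6 in D3 B, 70.7 in D5 A, 72.8 in D5 B, 303.2 in D9 A, 15.6 in D9 B, 16.5 in D19 A, 17.1 in D19 B, 64.4 in D25 A and 42.5 in D25 B. High values came from both D0 libraries, both D3 libraries and D9 A, and the protocols differed most at D0 and at D9. In LSEC-like cells, sinusoidal endothelium by its markers, Hspa1b stood at 1847 in D0 A, 345.6 in D0 B, 911.0 in D3 A, 539.3 in D3 B, 71.1 in D5 A, 86.0 in D5 B, 356.9 in D9 A, 14.1 in D9 B, 16.5 in D19 A, 27.3 in D19 B, 73.6 in D25 A and 48.4 in D25 B. These are the same libraries at the top and at the bottom, in an endothelial and not a blood cell. In T-like cells Hspa1b stood at 1874 in D0 A, 134.6 in D0 B, 190.0 in D3 A, 430.0 in D3 B, 75.2 in D5 A, 243.2 in D5 B, 1146 in D9 A, 30.3 in D9 B, 53.9 in D19 B, 282.2 in D25 A and 252.4 in D25 B, with too few cells in D19 A.

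The sum of both genes was highest in D0 A in 8 of 9 cell types with at least 10 libraries, and highest in D3 B in cDC1-like cells. It ranged from 23.1 (D9 B) to 5495 CPM (D0 A) in monocyte/macrophage-like cells, a 238-fold range, from 39.9 to 3717 in Kupffer-like, from 30.1 to 2657 in LSEC-like and from 31.9 to 2789 in NK/ILC-like cells. Neutrophil-like cells ranged from no UMI in D19 B to 406 in D0 A. Barcodes with at most 100 UMIs, which hold mostly free RNA, were also highest in D0 A and lowest in D19 A, with 2966 CPM in D0 A, 1457 in D3 A, 705 in D3 B, 586 in D0 B, 564 in D9 A and 32.6 in D19 A. Those of D25 B stood at 330 CPM, above the sums of its cell types other than T-like cells (466.1). The part of free RNA in the cells' values was not tested.

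**Figure D1:**
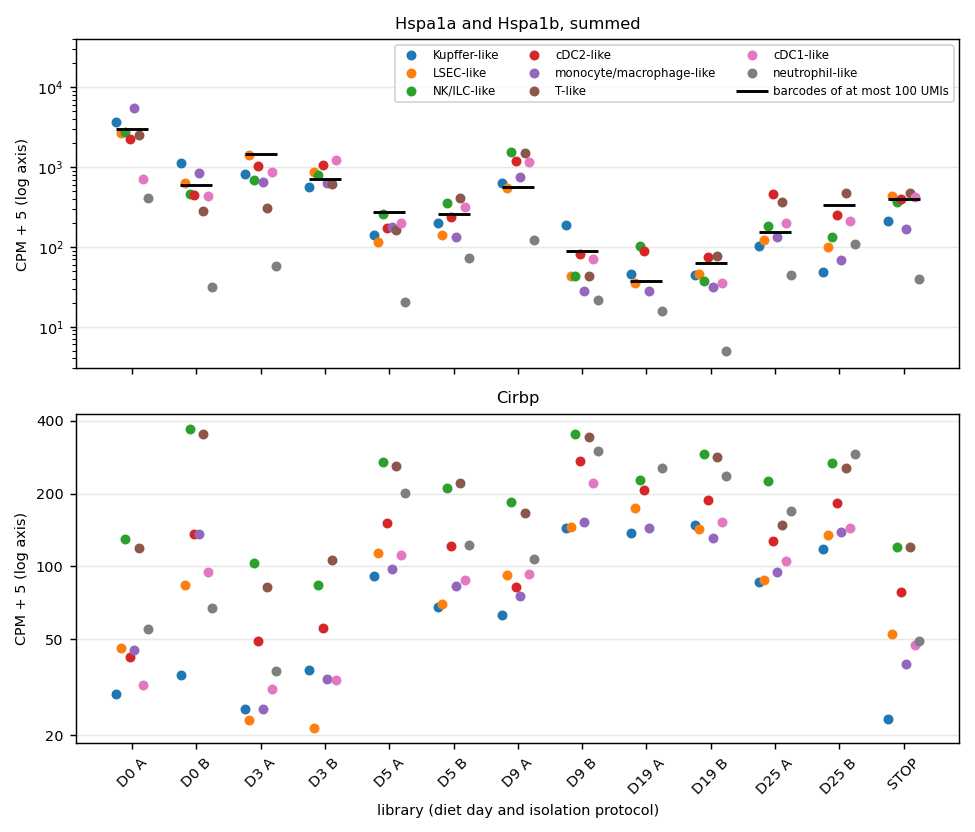
CPM plus 5 (log axes) for the sum of Hspa1a and Hspa1b (top) and for Cirbp (bottom) in each of 13 libraries; a point is a cell type with at least 20 cells, and black bars are barcodes with at most 100 UMIs. The Hsp70 sum is highest in D0 A, with 5495 in monocyte/macrophage-like cells, and lowest at D9 B and D19, while Cirbp is low in D0 A, D3 A, D3 B and STOP.

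A split of each gene's spread into cell type, library and rest put a number on this, over 3341 genes with a mean of at least 50 CPM, 31 of them members, in the 5 cell types present in all 12 libraries. Hspa1b had the largest spread between libraries of all these genes, with an SD of 1.97 on the log2 scale with a pseudocount of 10 CPM, and Hspa1a ranked 3 with 1.67. The median SD was 0.69 for heat shock members and 0.42 for immediate early members, against 0.29 for all genes. Of the spread within cell types, the library took 92.0% for Hspa1b, 91.0% for Hspa1a, 94.2% for Hspa8, 86.9% for Hsph1 and 85.6% for Hsp90aa1, against a median of 55.1% over all genes and 55.9% over immediate early members. These shares describe 12 libraries and carry no test.

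The chaperones did not share 1 library pattern. Hsph1, a nucleotide exchange factor of Hsp70, and Hsp90aa1, the inducible cytosolic Hsp90, were highest in D0 A in 7 and 8 of 9 cell types. Dnajb1, the Hsp40 cochaperone that brings clients to Hsp70, was highest in D0 B in 6 of 8 cell types and in D0 A in 3 of 9. Hspa8, the Hsp70 that cells make without stress, was highest in D3 B in 6 of 7 cell types and among the 3 highest in D25 B in 7 of 9. In LSEC-like cells Hspa8 had 484.1 CPM in D0 A, 544.8 in D0 B, 642.0 in D3 B and 779.8 in D25 B, and between 167.9 and 467.7 in the other libraries.

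Immediate early members split between the D0 libraries as well. Ier2, Jund, Atf3 and Ppp1r15a were highest in D0 B in 8, 7, 7 and 7 of its 8 cell types, while Nr4a3 was highest in D0 A in 7 of 9 and Egr1 in 4 of 9. Ier2 was at the same time lowest in D0 A in 4 of 9 cell types. The summed immediate early level varied less than the Hsp70 pair, between 10521 and 22727 CPM in monocyte/macrophage-like cells and between 6671 and 17042 in T-like cells.

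**Figure D2:**
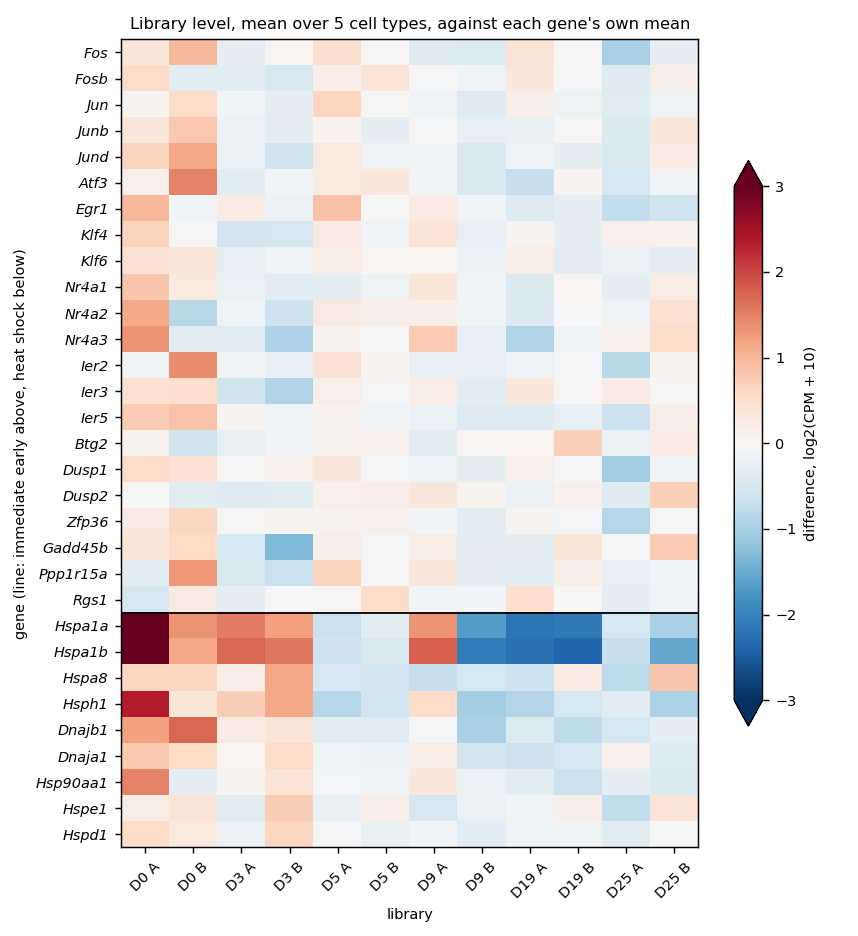
Each row is a member (immediate early above the line, heat shock below), each column an atlas library, and the colour is the log2 difference (pseudocount 10 CPM) of the library's mean over 5 cell types from the gene's own mean. Hspa1a and Hspa1b are raised in D0 A, D0 B, D3 A, D3 B and D9 A, and Jund, Atf3, Ier2 and Ppp1r15a in D0 B.

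Cirbp, an RNA-binding protein induced by cooling and lowered by warming, was low in some of the libraries with a high Hsp70 pair and, by the median over 5 cell types, not in D0 B. Its median over the 5 cell types was 40.1 CPM in D0 A, 20.7 in D3 A, 32.2 in D3 B and 47.4 in STOP, against 147.0 in D9 B, 169.8 in D19 A and 143.2 in D19 B. D9 A had 77.1, close to D5 B with 78.0. D0 B had 130.4, close to D25 B with 133.3, and it was the library with the highest Cirbp in NK/ILC-like (364.1) and T-like cells (346.1). In Kupffer-like cells, however, D0 B had 30.6 from 25 cells, near D0 A (24.7), D3 A (20.7) and D3 B (32.2). The share of mitochondrially encoded UMIs had its lowest median in D0 B, with 0.998%, against 2.23% to 5.23% elsewhere. The part of handling temperature and RNA quality in the members' levels was not tested.

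Other members varied mainly with the cell type. Cell type took 94.6% of the spread of Rgs1, a brake on chemokine receptor signalling, 86.8% of that of Dusp2 and 83.7% of that of Ier3, and 3.08% and 2.48% of that of Hspa1a and Hspa1b. The median of Rgs1 over atlas libraries was 1676 CPM in NK/ILC-like, 1515 in monocyte/macrophage-like and 1228 in Kupffer-like cells, and 16.1 in LSEC-like and 30.8 in vascular EC-like cells. Among the 9 cell types with at least 10 libraries, 12 members had their highest median in neutrophil-like cells, among them Junb with 5774, Btg2 with 3449, Dusp1 with 2209, Zfp36 with 1955 and Ier3 with 1126 CPM. Within these 9 cell types, endothelial cells held the highest medians of Fos (2269, LSEC-like), Egr1 (1454, LSEC-like), Jun (2277, vascular EC-like), Fosb (713) and Klf4 (545, both vascular EC-like), and of the small heat shock protein Hspb1 with 226 in vascular EC-like cells and at most 25.8 in the other 8. Mesothelial-like cells, with 6 libraries, had higher medians of Fos (3003), Egr1 (1679), Fosb (1448), Klf4 (600.5) and Hspb1 (1041), and a lower one of Jun (2237). Lymphatic EC-like cells, with 5 libraries, had higher medians of Egr1 (2065.5) and Klf4 (694.0) than mesothelial-like cells. Their medians of Fos (1898), Fosb (850.3), Jun (1732) and Hspb1 (82.4) were lower than those of mesothelial-like cells. Neutrophil-like cells had the lowest medians of Hspa1a (13.9), Hspa1b (26.0), Hspa8 (150) and Hspd1 (45.9) among the 9.

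Between DDC and steady state, members that passed the test were all lower with DDC. In 10 cell types with both D0 libraries, 38 of 333 pairs of member and cell type were called lower and 0 higher (edgeR's quasi-likelihood test at matched protocol, Benjamini-Hochberg adjusted over all genes of a cell type, threshold 0.05), where 1.31% of all gene and cell type pairs were called lower, 0.989% higher and 2.29% in either direction. Monocyte/macrophage-like cells had 12 calls of 34 members, where 2.92% of all genes were called lower, Kupffer-like 11 of 34 (1.38%), B-like 4 of 32 (0.222%), T-like 3 of 34 (0.969%), cDC2-like 3 of 34 (1.33%) and pDC-like 2 of 33 (0.602%). In cDC1-like cells 3 of 34 members were called, where 3.57% of all genes were called lower and 7.55% in either direction. LSEC-like, NK/ILC-like and neutrophil-like cells had 0 by edgeR, where 0.0185%, 0.0934% and 0.2% of all genes were called in either direction. The 0 is thus near the share of all genes. In each of the 3, 11 members were at an unadjusted p under 0.05. Of all genes, 1186 of 10807, 579 of 5355 and 849 of 5991 were at such a p. Immediate early members were not lower on balance in neutrophil-like cells, with a median log2 difference of 0.28 and 10 of 24 values negative, against 9 of 9 negative for heat shock members (median -0.43). Among them Gadd45b and Dusp2 had values of 1.43 and 1.33 (edgeR adjusted p = 0.0865 and 0.128). DESeq2 called 54 pairs, 5 of them higher. The median log2 difference was -0.90 for heat shock and -0.36 for immediate early members, against 0.01 for all genes. All DDC libraries lay below both D0 libraries in 49 of 333 pairs, against 3.86% of all gene and cell type pairs, and for 15 of 34 members in Kupffer-like and 12 of 34 in monocyte/macrophage-like cells, where it held for 8.80% and 5.58% of all genes.

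Among heat shock members, Dnajb1 passed in 7 cell types. In monocyte/macrophage-like cells Dnajb1 stood at 285.9 CPM in D0 A and 258.3 in D0 B, at 54.5 and 73.2 at D3, 42.8 and 41.6 at D5, 46.3 and 29.7 at D9, 31.5 and 25.8 at D19 and 34.4 and 40.7 at D25, with protocol A before B. Both D0 libraries lay above every DDC library, and the difference was -2.64 on the log2 scale (SE 0.23, edgeR adjusted p = 6.73e-05). It was -2.26 (SE 0.27, edgeR adjusted p = 0.000245) in Kupffer-like cells, where Dnajb1 ranged from 132.7 to 226.2 at D0 and from 14.7 to 60.1 with DDC, and the differences in B-like, T-like, cDC1-like, pDC-like and cDC2-like cells were -2.10, -1.59, -1.999, -2.02 and -1.68. In B-like cells Dnajb1 had 297.7 CPM in D0 A and 471.7 in D0 B, 49.0 to 111.1 in 3 onset libraries and 11.5 and 119.3 in D25 A and D9 A. In T-like cells it had 256.8 and 506.9 at D0, 119.6 to 182.2 at onset and 69.7 to 283.2 at progression, and D9 A was the 1 DDC library inside the D0 range. In pDC-like cells it had 347.7 to 409.8 at D0 and 51.3 to 183 with DDC, without overlap. In cDC1-like cells its mean over both D0 libraries was 189.0, with 269.0 in the higher one, and the DDC libraries ranged from 36.2 to 124.2, with D3 A and D9 A inside the D0 range. In cDC2-like cells it had 105.8 and 238.6 at D0 and 36.6 to 121 with DDC, and the groups overlapped. Without D0 B the log2 difference of Dnajb1 was -0.36 in T-like, -0.13 in cDC1-like and -0.15 in cDC2-like cells, so that these calls rest on D0 B, and in pDC-like cells it was -1.34 (edgeR adjusted p = 0.501).

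Hspa1a fell in B-like, Kupffer-like and monocyte/macrophage-like cells, by 2.12, 2.51 and 3.09 on the log2 scale, and Hspa1b in B-like and Kupffer-like cells, by 1.78 and 3.10. In B-like cells Hspa1a had 1454 CPM in D0 A, 276.2 in D0 B, 523.7 in D3 A, 216.2 in D5 A, 98.0 in D5 B, 425.1 in D9 A and 23.0 in D25 A. Hspa1b had 2674 in D0 A and 207.2 in D0 B there, and 667.3, 300.3, 163.3, 982.5 and 103.4 in the same DDC libraries, so that for both genes D0 B lay inside the DDC range. Without D0 A the log2 difference of Hspa1b in B-like cells was -0.81 (edgeR adjusted p = 0.656). The D0 libraries themselves differed widely here, as Hspa1a stood at 1189 in D0 A and 357.2 in D0 B in Kupffer-like cells, where the DDC libraries ranged from 23.3 to 323.0. Hsph1 fell in B-like and monocyte/macrophage-like cells (-2.01 and -2.28), Hspb1 in cDC2-like and monocyte/macrophage-like cells (-2.50 and -2.997), and Dnaja1 and Hsp90aa1 in Kupffer-like cells (-1.34 and -1.17). Without D0 A the differences of Hsph1 were 0.012 and -0.80 and that of Hsp90aa1 was -0.43, and without D0 B those of Hspb1 were -0.69 and -0.80, so that 1 D0 library carries each of these 5 calls (edgeR adjusted p without it of 0.569 to 0.9998). Hspa8 and the mitochondrial chaperonin genes Hspd1 and Hspe1 passed in none of 10 cell types by edgeR, with log2 differences of -1.66 to -0.43 for Hspa8 and -1.37 to -0.03 for Hspd1. In T-like cells Hspd1 had 247.3 and 211.5 CPM at D0 and 125.7 to 384.3 with DDC, and the groups overlapped.

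Of the AP-1 subunits, which pair up to bind DNA, Jund passed in 5 cell types, with log2 differences of -2.20 in pDC-like, -1.49 in T-like, -1.35 in monocyte/macrophage-like, -1.22 in cDC2-like and -1.11 in cDC1-like cells. Without D0 B these were -0.99, -0.18, -0.77, -0.49 and 0.26, and none passed by edgeR. Atf3, a repressor of the same family, fell in T-like and monocyte/macrophage-like cells (-1.67 and -1.34), with 0.18 and -0.21 without D0 B. Fos and Junb fell in Kupffer-like cells. There Fos stood at 2597 CPM in D0 A and 2357 in D0 B, at 873 to 1645 over 4 onset libraries and at 688 to 1506 over 6 progression libraries with a median of 920, a log2 difference of -0.995 (SE 0.24, edgeR adjusted p = 0.0420), without overlap between D0 and DDC. Jun and Fosb passed in no cell type by edgeR.

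Kupffer-like and monocyte/macrophage-like cells shared most of the remaining calls. Nr4a1, an orphan nuclear receptor, had 326.6 to 634.1 CPM at D0, 109.01 to 126.2 at onset and 94.1 to 322.5 at progression in Kupffer-like cells (log2 difference -1.62, SE 0.32, edgeR adjusted p = 0.0119), and fell by 1.03 on the log2 scale in monocyte/macrophage-like cells, where it had 504.7 and 695.7 at D0, 268.9 to 295.2 at onset and 233.5 to 365.6 at progression with a median of 276.1. Neither cell type had a DDC library within the D0 range. Dusp1, a phosphatase that switches off stress kinases, had 2531 and 2581 at D0 and 796 to 1449 with DDC in Kupffer-like cells (log2 difference -1.04), and fell by 0.76 on that scale in monocyte/macrophage-like cells, from 1576 and 1979 at D0 to 967.7 to 1376 at onset and 754.4 to 1161 at progression. Ier5, a target and helper of heat shock factor 1, fell in both (-1.55 and -1.41), as did the zinc-finger factor Klf6 (-1.19 and -0.79), which fell in cDC1-like cells too (-0.77). Ier2 and Gadd45b fell in monocyte/macrophage-like cells (-1.56 and -0.98). The call of Ier2 rests on D0 B, with 875.5 CPM against 234.9 in D0 A and 130.9 to 288.0 with DDC, and its log2 difference was -0.04 without that library (edgeR adjusted p = 0.948). Egr1, Egr2, Egr3, Klf4, Nr4a2, Nr4a3, Ier3, Btg2, Dusp2, Zfp36, Ppp1r15a and Rgs1 passed in no cell type by edgeR. In LSEC-like cells Egr1 had 1347 to 2366 CPM at D0, 1356 to 2263 at onset and 731 to 1830 at progression, with overlapping ranges, and in T-like cells 55.1 and 133.2 at D0 and 14.1 to 385.4 with DDC.

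These calls rest on 2 D0 libraries that differ from each other. With 1 of them left out, or within 1 protocol, steady state is 1 library, which is assumed to vary as the DDC libraries do. Without D0 A 61 pairs were called and without D0 B 22, and of the 38 calls 19 and 11 remained, 3 of them in both: Dnajb1 in B-like and monocyte/macrophage-like cells and Ier5 in monocyte/macrophage-like cells. Dnajb1 in monocyte/macrophage-like cells differed by -2.75 without D0 A and by -2.39 without D0 B. In B-like cells the size of its difference depended more on the D0 library, with -3.93 without D0 A and -1.48 without D0 B. A lost call is not always a smaller difference, as Dnajb1 in Kupffer-like cells was at -2.11 without D0 A (edgeR adjusted p = 0.267) against -2.26 with it. Within protocol A 5 calls remained, where the 2 of pDC-like cells could not be fitted, and within protocol B 19, where the 4 of B-like cells could not be fitted.

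**Figure D3:**
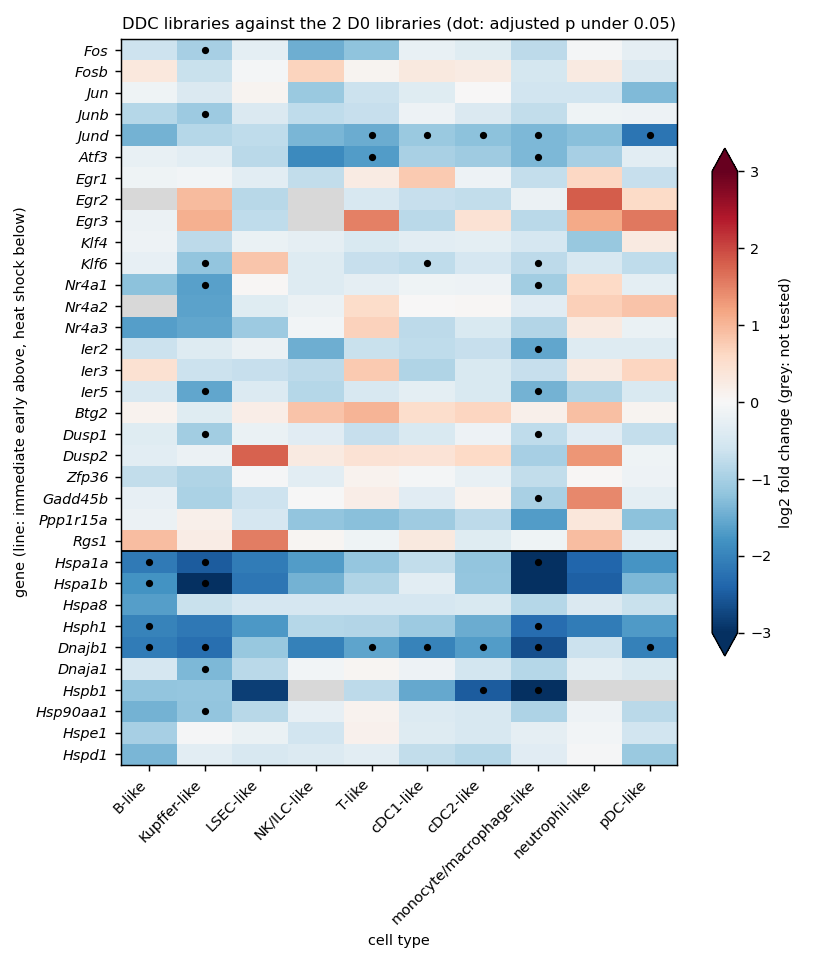
Colours give the log2 fold change of 10 DDC libraries against 2 D0 libraries at matched protocol, with members as rows, 10 cell types as columns and grey where a gene was not tested; a dot marks an edgeR adjusted p under 0.05. All 38 dots lie on lower values, 12 in monocyte/macrophage-like and 11 in Kupffer-like cells.

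Whether the difference between DDC and D0 was the same with both protocols was tested as an interaction. It rests on 1 D0 library per protocol and takes its spread from the DDC libraries, so that a diet difference particular to a protocol and a pair of unlike D0 libraries cannot be told apart. Of 338 pairs in 10 cell types, 22 passed, 19 with a more negative difference in protocol B and 3 with a more positive one, where 1.05% of all gene and cell type pairs passed, 0.487% more negative and 0.56% more positive. All 22 were among 239 immediate early pairs, and 0 of 99 heat shock pairs passed by edgeR, with 16 of these at an unadjusted p under 0.05. By cell type, the share of all genes at such a p ran from 799 of 11469 in Kupffer-like to 1626 of 6407 in NK/ILC-like cells. The share of heat shock pairs lies within that range. NK/ILC-like cells had 6 calls, where 5.06% of all genes passed, cDC1-like 6 (1.5%), T-like 5 (2.64%), B-like 3 (1.13%) and cDC2-like 2 (1.34%). The median interaction over all genes was -0.07, and -0.70 in B-like, -0.43 in cDC1-like, -0.34 in cDC2-like, -0.21 in T-like and -0.04 in NK/ILC-like cells. Fos in cDC1-like cells stood at 290.7 CPM in D0 A, 2239 in D0 B and 530.8 to 1783 with DDC, so that D0 A was the lowest and D0 B the highest of 11 libraries, with an interaction of -3.03 on the log2 scale (SE 0.45, edgeR adjusted p = 0.0104). Fos in NK/ILC-like cells stood at 283.2 in D0 A, at 1266 in D0 B and at 110.0 to 608.2 with DDC (-3.07, SE 0.72, edgeR adjusted p = 0.0250), and in T-like cells at 294.8, 1360 and 126.7 to 892.9 (-2.78, SE 0.71, edgeR adjusted p = 0.0413).

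Jun passed in the same 3 cell types. It had 386.4 CPM in D0 A, 986.6 in D0 B and 199.7 to 581.6 with DDC in NK/ILC-like cells, 356.6, 786.2 and 212.3 to 968.1 in T-like cells, where D5 A and D9 A lay above D0 B, and 127.2 in D0 A, 632.2 in D0 B and 144.8 to 526.1 CPM with DDC in cDC1-like cells. Jund passed in these as well (-2.12 to -2.47), Atf3 in B-like, cDC1-like and cDC2-like cells, Ier2 in T-like, cDC1-like and cDC2-like cells, and Ppp1r15a, which restarts translation after stress, in B-like, NK/ILC-like and T-like cells. Rgs1 passed in NK/ILC-like cells, with 506.4 in D0 A, 2849 in D0 B and 536.2 to 2338 with DDC. The 3 positive values belong to Egr3 in B-like, cDC1-like and NK/ILC-like cells. In cDC1-like cells Egr3 stood at 408.7 CPM in D0 A, 89.0 in D0 B and 100.5 to 178.4 with DDC, while in NK/ILC-like cells it was near the limit of detection, with 3.45 in D0 B and no UMI in D9 A, D19 A and D25 A. Mitochondrially encoded genes went the other way from most of these calls, with 12 of 130 pairs more positive and 0 more negative. Of all gene and cell type pairs, 0.56% were more positive and 0.487% more negative. D0 A holds 64 T-like, 23 cDC1-like and 24 cDC2-like cells, but 387 B-like and 148 NK/ILC-like cells. With at least 50 cells per library 0 of 169 pairs in 5 cell types passed. B-like, cDC1-like and cDC2-like cells could not be fitted at that setting, so that their calls were not retested.

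**Figure D4:**
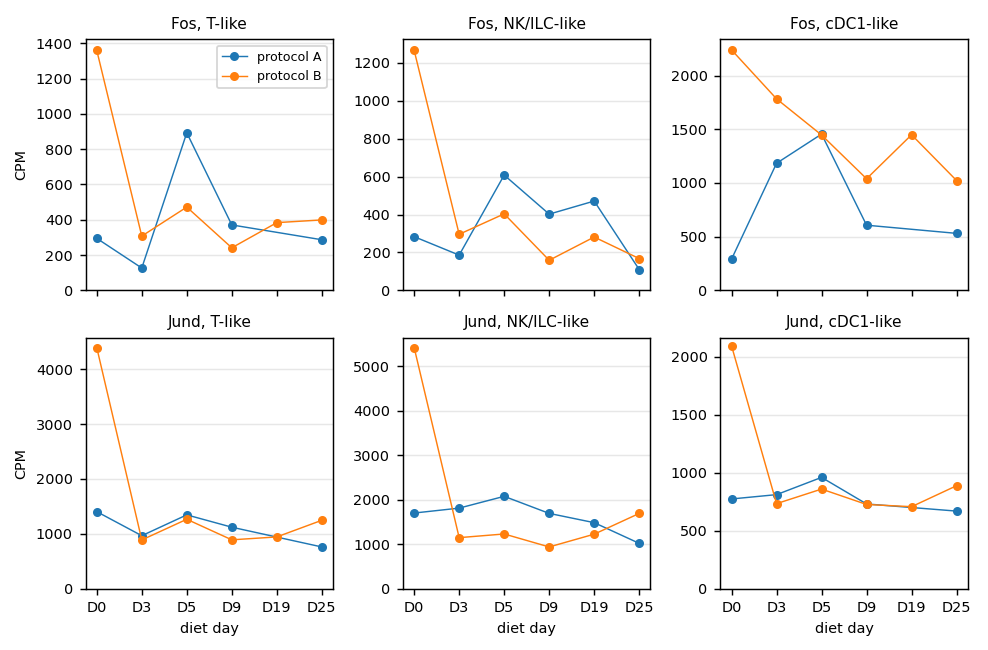
CPM of Fos (top) and Jund (bottom) by diet day in T-like, NK/ILC-like and cDC1-like cells for protocol A (blue) and B (orange); a point is 1 library and is missing under 20 cells. D0 B is highest in all 6 panels, and D0 A lies within or below the range of the DDC libraries in the 3 panels of Fos.

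Between isolation protocols at matched stage, 11 of 434 pairs in 13 cell types passed, 6 higher and 5 lower in protocol B, where 3.82% of all gene and cell type pairs passed, 1.26% higher and 2.56% lower. Hspe1, the cochaperonin of the mitochondrion, was higher in protocol B in Kupffer-like, cDC2-like and monocyte/macrophage-like cells, by 0.86, 0.60 and 0.58 on the log2 scale. Klf4 and Ier3 were lower in Kupffer-like cells (-1.03 and -0.92), Nr4a3 in cDC1-like cells (-1.34) and Hspb1 in cDC2-like cells (-2.99), where Ier5 was higher (0.62). Of all genes, 12.3% passed in cDC2-like cells, where 3 of 34 members did, and 12.4% in neutrophil-like cells, where 2 of 33 did. In neutrophil-like cells these were the rises of Nr4a2 by 2.52 (SE 0.31, edgeR adjusted p = 0.000516) and of Rgs1 by 1.78 (SE 0.44, edgeR adjusted p = 0.0185). Rgs1 there stood at 21.2 to 513.9 in protocol A libraries and at 373.1 to 1022 in those of protocol B, and the ranges overlapped. Of these 11 calls, Klf4 in Kupffer-like, Hspb1 in cDC2-like and Nr4a2 in neutrophil-like cells remained whichever library was left out.

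Hspa1a had a lower fitted value in protocol B in 13 of 13 cell types, as had Hspa1b and Hsp90aa1, but passed in vascular EC-like cells alone (-2.86, SE 0.57, edgeR adjusted p = 0.0347). There Hspa1a had 1045 CPM in D0 A and 70.8 to 437.4 in the other protocol A libraries, against 0 to 41.3 in 4 protocol B libraries. D0 B and D3 B, with 13 and 14 of these cells, did not enter, and the call no longer passed with the diet day as a replicate block. Hspa8 had a higher fitted value in 13 of 13 cell types and passed in none by edgeR, with log2 differences of 0.13 to 1.16. The libraries share these values across cell types, so the cell types are not independent replicates of a direction.

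Between progression and onset, 0 of 466 pairs in 14 cell types passed by edgeR, where 0.0727% of all gene and cell type pairs passed. At an unadjusted p under 0.05 there were 78 of the 466 pairs, and DESeq2 called 2. By cell type, the share of all genes at such a p ran from 170 of 5850 in B-like to 809 of 5991 in neutrophil-like cells. The median log2 difference was -0.48 for heat shock and -0.06 for immediate early members, against 0.00 for all genes. The smallest p within each role belonged to Hspb1 in vascular EC-like cells (-1.33, SE 0.31, edgeR adjusted p = 0.125), Egr3 in Kupffer-like cells (-1.27, SE 0.31, edgeR adjusted p = 0.117), Hspe1 in mature DC-like cells (-1.12), Rgs1 in B-like cells (1.89), Hspa1b in pDC-like cells (-2.32), Nr4a1 in T-like cells (0.91), Ier3 in B-like cells (1.34) and Atf3 in cDC1-like cells (-1.07). The adjusted p of the last 6 was at least 0.207 by edgeR. D9 A, with Hspa1b at 397.7 in Kupffer-like cells against 11.4 to 88.4 in the other progression libraries, falls among the later time points, and without it 6 pairs were called lower.

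STOP was compared with D19 B, the library of the same protocol and nearest diet day. The inducible Hsp70 pair and Hsph1 were higher in STOP than in D19 B in most cell types. With 1 library each there is no test, and a pair counts here when the levels lie at least 2-fold apart with separate exact 95% Poisson intervals, which cover counting error only. By this rule 73 of 451 pairs in 14 cell types were higher and 20 lower in STOP, where 10.4% of all gene and cell type pairs were past the fold, 5.74% higher and 4.68% lower. Heat shock members were higher in 51 of 130 pairs and lower in 0, and immediate early members were higher in 22 and lower in 20 of 321.

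Hspa1b was higher in 12 of 14 and Hspa1a in 11 of 13 cell types, followed by Hsph1 in 9 of 13, Ier3 in 7 of 14, Hsp90aa1 in 6 of 14 and Dnajb1 in 5 of 14. Hspa1a had 166.8 CPM (interval 158.5 to 175.4) in STOP and 19.1 (16.4 to 22.1) in D19 B in T-like cells, an 8.75-fold difference against D19 B. It was 25.8-fold higher in cDC1-like, 13.8-fold in LSEC-like and 5.18-fold in monocyte/macrophage-like cells. These folds divide by low values, as D19 B had the lowest Hsp70 sum of the atlas libraries in 5 of 9 cell types. Against D25 B, Hspa1a was higher in 7 of 13 cell types and lower in 1, with a median ratio of 1.97 and at most 5.64. Hspa1b was higher there in 10 of 14 (median ratio 3.23) and Hsph1 in 13 of 13 (4.38), with 0 lower. In BEC-like cells, biliary epithelium by its markers, Hspa1a differed 1.48-fold and Hspa1b 1.93-fold, under the rule. Hspa8 was past 2-fold in 0 of 14 cell types, with ratios of 0.55 to 1.03.

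In Kupffer-like cells, where 11.1% of all genes were higher in STOP, 7 immediate early members were higher, among them Egr1 with 945.3 against 132.1 CPM. In neutrophil-like cells 9 immediate early members were lower, where 18.7% of all genes were lower and the median ratio over all genes was 0.669. The median ratio of heat shock members there was 0.596. STOP lies within the range of the atlas: its summed Hsp70 pair, with a median of 364.0 over 5 cell types, was above both D25 libraries (129.7 and 95.01) and below D0 B (628.1), D9 A (745.3), D3 B (801.5) and D3 A (811.0). Cirbp was lower in STOP than in D19 B, with 114.8 against 278.2 CPM in T-like and 34.6 against 125.7 in monocyte/macrophage-like cells. Hepatocyte genes took a median over 5 cell types of 0.111% in STOP and 0.034% in D19 B, and mitochondrially encoded genes 2.23% and 3.52%. In barcodes with at most 100 UMIs the Hsp70 pair stood at 392.9 CPM in STOP and 57.95 in D19 B. The part of free RNA and handling in the difference was not tested. Against D25 B in place of D19 B, 37 of 130 heat shock pairs were higher and 3 lower, and 32 and 18 of 321 immediate early pairs, where 8.86% of all gene and cell type pairs were past the fold, 5.25% higher and 3.61% lower. In T-like cells the Hsp70 pair was about equal there, with a sum of 476.0 CPM in STOP and 466.1 in D25 B, and the median ratio of heat shock members was 0.980. Against D0 B, 4 of 93 heat shock pairs were higher and 18 lower, and 35 and 53 of 230 immediate early pairs, where 22.1% of all gene and cell type pairs were past the fold, 17.7% higher and 4.45% lower. The median ratio over all genes was 0.993 to 1.45 by cell type in that comparison.

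**Figure D5:**
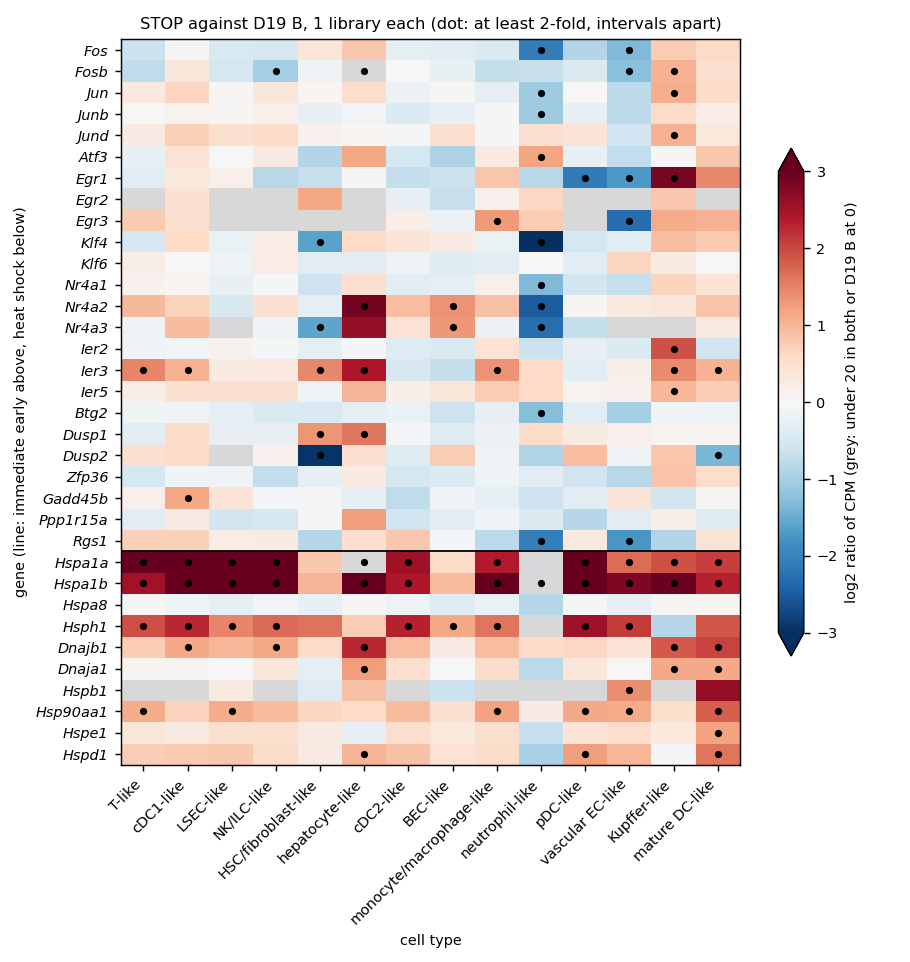
Colours give the log2 ratio of CPM in STOP to those in D19 B, 1 library each, for members (rows) in 14 cell types (columns), grey where both are under 20 or D19 B is at 0; a dot marks at least 2-fold with separate intervals. Hspa1a, Hspa1b and Hsph1 are higher in 11, 12 and 9 cell types, while Hspa8 shows no dot.

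Related genes outside the group were counted in the same fits. Of other early response genes, 16 of 304 pairs were lower and 0 higher with DDC, led by Id3 (-1.68) and Nfkbiz (-1.67) in monocyte/macrophage-like, Klf2 in NK/ILC-like (-2.87) and Rhob in Kupffer-like cells (-1.04). Of other heat shock factor targets 3 of 216 were lower and 2 higher, shares near the 1.31% and 0.989% of all pairs. The calls of smallest p were the cochaperone Bag3 (-1.40) and mitochondrial Hspa9 (0.86) in monocyte/macrophage-like, Dnajb6 in T-like (-1.22) and the collagen chaperone Serpinh1 in cDC1-like cells (2.46). Of endoplasmic reticulum stress genes 4 of 153 were lower, among them Herpud1 in monocyte/macrophage-like (-1.36) and Hsp90b1 in cDC2-like cells (-0.999), and of the cold-inducible genes Cirbp and Rbm3 0 of 20 passed by edgeR, with Cirbp at 1.62 in Kupffer-like cells (edgeR adjusted p = 0.102). Of genes defining hepatocytes 31 of 150 were lower, led by Serpina1e in B-like (-6.81) and Mup3 in neutrophil-like cells (-5.82), and of mitochondrially encoded genes 2 of 130, mt-Co3 (-1.84) and mt-Co2 (-2.35) in B-like cells. Hepatocyte RNA thus moved with the diet comparison in the same direction as the members, and its part in their difference was not tested.

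Between protocols, 2 of 400 pairs of other early response genes were higher and 14 lower in protocol B, a share near the 3.82% of all pairs, with the smallest p for Sgk1 in NK/ILC-like cells (-2.33). Of heat shock factor targets 1 of 288 was higher and 5 lower, among them Serpinh1 and Bag3 in cDC2-like cells (-2.20 and -1.33), and of endoplasmic reticulum stress genes 3 of 202 were higher and 1 lower. Hepatocyte genes were lower in 16 of 204 pairs and higher in 0, mitochondrially encoded genes lower in 11 and higher in 3 of 169, and the cold-inducible genes passed in 0 of 26 by edgeR. In the interaction, 1 of 311 early response pairs was more positive in protocol B and 11 more negative, with the smallest p for Id3, Sgk1, Klf2 and Rhob in cDC1-like cells (-2.54, -2.93, -2.54 and -4.96), and 1 and 6 of 220 pairs of heat shock factor targets, among them Ubb in B-like cells (-3.997). There hepatocyte genes were more positive in 2 of 173 pairs, and endoplasmic reticulum stress genes passed in 0 of 156 and cold-inducible genes in 0 of 20 by edgeR. Between progression and onset, edgeR called 0 of 429 early response pairs, 0 of 308 of heat shock factor targets, 0 of 217 of endoplasmic reticulum stress genes and 0 of 28 of cold-inducible genes. Hepatocyte genes were lower in 7 of 213 pairs, among them Serpina1e in Kupffer-like cells (-5.22), and mt-Nd3 in B-like cells (2.22) was the 1 mitochondrial pair of 182 that passed.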

How the data were processed

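Single liver cells were captured with 10x 3′ chemistry in 13 libraries. Each deposited matrix holds unnormalized UMI counts of genes by barcodes, for which the authors ran kallisto on GRCm38 per the labels (version and annotation not given in the sources used here), with no barcode filter. The 95563 barcodes that reached 1500 UMIs were taken as cells, clustered with scanpy 1.11.5 and the Leiden method of igraph 0.11.9 without the members and the other stress lists (2000 variable genes, 40 principal components, 25 neighbours, resolution 1.5, 68 clusters) and named from marker lists. A cluster was left unnamed with under 3 markers detected, with too few of its list, with under 20 cells, or with leading genes or strong markers of another type. This naming rule was revised after the clusters were seen. Scrublet marked 6528 cells, at 0.8% per 1000 cells, and these were removed in an alternative only.

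Counts were summed per library and cell type with at least 20 cells, so that cells are not replicates. The edgeR 4.0.16 quasi-likelihood test (R 4.3.3) was fitted to all genes of each cell type with stage and protocol as terms, TMM scaling and filterByExpr, and p-values were adjusted by Benjamini-Hochberg over all genes tested, with 0.05 as threshold. Protocol B was compared with A, DDC with steady state, progression with onset, and the diet difference between protocols. STOP was compared with D19 B by levels with exact Poisson intervals at 95%, for genes at 20 CPM in either. The functions were tested on simulated data. DESeq2 1.42.0 and other settings were run as alternatives. Members and lists were chosen with earlier results of these data known. Values per library were given for Fos, Jun, Egr1, Nr4a1, Dusp1, Rgs1, Hspa1a, Hspa1b, Hspa8, Dnajb1 and Hspd1 in cell types where called, as single values or ranges, and otherwise in T-like or LSEC-like cells. Folds were given for called pairs and, where none was called, for the smallest p per role, and for up to 4 genes of smallest p from lists of other early response genes, other heat shock factor targets, endoplasmic reticulum stress, cold-inducible, hepatocyte and mitochondrially encoded genes. Egr3 in cDC1-like and NK/ILC-like cells, Gadd45b and Dusp2 in neutrophil-like cells with DDC and Egr1 in Kupffer-like cells after recovery were named after their values were seen. Intervals cover counting error only.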

Additional observations from a re-analysis of the deposited data

Results flagged for a closer look

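Of 55 groups of 4 to 6 libraries, 13 held 1 library whose gap to the next was large against the range of the group by Dixon's test. Chance flags about 1 in 20 independent groups, and these groups share libraries. D9 A was that library in 7 of them among progression libraries. In Kupffer-like cells D9 A had Hspa1a at 239.9 CPM (median of the others 29.03), Hspa1b at 397.7 (19.7) and Nr4a1 at 322.5 (132.8). In monocyte/macrophage-like cells it had Hspa1a at 303.2 (17.1), in cDC1-like cells Dnajb1 at 124.2 (39.7), and in T-like cells Jun at 869.8 (259.4) and Hspd1 at 384.3 (146.2). D19 A stood apart for Fos in Kupffer-like cells with 1506 (918.1). Among onset libraries D5 A stood apart for Jun in T-like cells with 968.1 (377.9), D5 B for Nr4a1 in monocyte/macrophage-like cells with 295.2 (271.1) and for Rgs1 in NK/ILC-like cells with 2338 (1809), D3 A for Dnajb1 in Kupffer-like cells with 60.1 (32.6) and D3 B for Hspd1 in T-like cells with 286.7 (131.6).

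The interaction of diet and protocol passed for 22 pairs of member and cell type (log2 scale, edgeR), and for 0 of 169 pairs with at least 50 cells per library. The pairs of B-like, cDC1-like and cDC2-like cells could not be fitted at that setting. In B-like cells the values were -2.96 for Atf3, 2.99 for Egr3 and -4.64 for Ppp1r15a. In NK/ILC-like cells they were -3.07 for Fos, -2.29 for Jun, -2.47 for Jund, 5.28 for Egr3, -3.39 for Ppp1r15a and -2.57 for Rgs1. In T-like cells they were -2.78 for Fos, -2.49 for Jun, -2.12 for Jund, -2.41 for Ier2 and -1.95 for Ppp1r15a. In cDC1-like cells they were -3.03 for Fos, -3.30 for Jun, -2.19 for Jund, -3.21 for Atf3, 1.82 for Egr3 and -2.93 for Ier2, and in cDC2-like cells -2.69 for Atf3 and -2.46 for Ier2. Each rests on 1 D0 library per protocol, so that a diet difference particular to a protocol and unlike D0 libraries cannot be told apart.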

How the results depend on the processing

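The counts of called pairs moved with the settings. Between protocols the 11 became 22 with DESeq2, 69 with no filter on low counts, 7 with doublets removed, 13 with the diet day as a replicate block, and 6 to 18 when 1 library was left out, with 6 without D9 A or D25 B, 7 without D25 A and 18 without D19 A. The criterion for pairing by day, a correlation of deviations over 0.1 for every day, was met in none of 5 cell types, with values between -0.491 and 0.379 and the same value for D3 and D5, which form 1 stage. Libraries of 1 day were therefore not taken as pairs. Of the 25 values, however, 14 were over 0.1, and the test of the diet takes no account of such a dependence between libraries of 1 day. With the block 8 of the 11 calls remained, and Ier5 and Hspe1 in cDC2-like cells and Hspa1a in vascular EC-like cells no longer passed. For DDC the 38 became 92 with no filter, 18 with no protocol term, 22 in protocol A only, 18 at 3000 UMIs per cell, 15 at 50 cells per library and 22 to 61 when 1 library was left out. For progression the 0 became 2 with DESeq2, 41 with no filter, 4 in protocol A only, 2 in protocol B only and 0 to 6 when 1 library was left out. The 22 interactions became 39 with DESeq2, 57 with no filter, 10 at 3000 UMIs, 0 at 50 cells and 14 to 31 when 1 library was left out, with 14 without D5 A. At 1.5-fold the 93 pairs of STOP became 173. Fewer cell types could be fitted at 3000 UMIs or 50 cells; for the other settings the cause was not tested.

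With the cluster led by hepatocyte genes counted as LSEC-like, an alternative chosen after seeing the data, DDC gave 39 calls. Over 71 named pairs, 1045 of 1353 values kept direction and side of the threshold, 304 kept direction only and 4 reversed: Hsph1 in B-like cells, from -2.43 to 0.012 when 1 library was left out (0.012 without D0 A), Atf3 in T-like cells, from -2.29 to 0.18 (0.18 without D0 B), and Jund in cDC1-like cells, 0.19 in protocol A only and from -1.91 to 0.26 when 1 library was left out (0.26 without D0 B). The values that were kept include copies of the main fit. No named pair is LSEC-like, so the 71 values of the LSEC-like alternative repeat the main fit. Leaving out a library that a cell type did not use repeats it as well. The number kept thus overstates how stable the calls are.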
